A study of Mus musculus with 12 samples.

Results

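The FOS and JUN genes encode the subunits of AP-1, a transcription factor made of paired basic leucine zipper (bZIP) proteins. All 8 genes of the family set were examined: Fos, Fosb, Fosl1, Fosl2, Jun, Junb, Jund and Jdp2. They were chosen by name, and their Ensembl identifiers were matched to GENCODE vM21 symbols, which found 8 of the 55421 identifiers in the raw count table. Messenger RNA had been sequenced from cultured mouse lines in 12 libraries, 3 in each of 4 groups. ID8 is a cancer line from mouse ovarian surface epithelium (labelled C57BL6J wildtype), and PMJ2R is a peritoneal lavage macrophage line (C57BL6J by its label, which adds the oncogenes v-raf and v-myc), both labelled female. Each line was measured as control and after 6 h in 5 nM rebastinib, a kinase inhibitor directed at the angiopoietin receptor TIE2. Every PMJ2R library, control and treated, therefore carries these oncogenes. A dose and a time are given for the rebastinib libraries only. No label tells whether the 3 replicates of a group were grown apart, so the spread behind each p-value may be technical only. The chemotherapy arms that the series design mentions are not analysed here.

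FOS proteins (FOS, FOSB, FOSL1 also called FRA1, and FOSL2 also called FRA2) pair only with other bZIP proteins, mainly JUN proteins, whereas JUN proteins can also pair among themselves. Many AP-1 genes are immediate-early genes, switched on within minutes by growth factors and stress through MAP kinases, and their messengers are short-lived. JUNB and JUND often oppose JUN in cell growth, and JDP2 is a bZIP protein that pairs with JUN and mostly represses AP-1 sites. In macrophages AP-1 acts in inflammatory gene induction, and in epithelial tumours FOSL1 is known for invasion and matrix breakdown.

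Library totals ran from 19025504 to 27070556 counts, and no replicate pair agreed within sampling noise. Macrophage markers reached at least 1 CPM (a count scaled to library size) on average for 12 of 12 genes in both PMJ2R groups and for 2 in both ID8 groups. Ovarian surface and mesothelial markers did so for 12 of 12 in ID8 control, 11 in ID8 rebastinib and 0 in PMJ2R. Of 5 fibroblast markers, 3 did so in ID8 and 0 in PMJ2R, and no endothelial or lymphocyte marker did in any group. Tek, which encodes TIE2, had 0 counts in all 6 ID8 libraries and at most 4 counts in any PMJ2R library. Other measures moved with rebastinib in both lines. Genes that overlap ribosomal RNA took 0.106% to 0.355% of counts in ID8 control and 1.05% to 1.6% in ID8 rebastinib, and 0.0927% to 0.172% in PMJ2R control and 5.63% to 5.99% in PMJ2R rebastinib. Ribosomal protein genes took 4.04% to 4.68% of counts in ID8 control and 7.5% to 9.26% in ID8 rebastinib, and 4.36% to 5.07% in PMJ2R control and 6.61% to 6.87% in PMJ2R rebastinib. Mitochondrial genes took 2.92% to 3.14% in ID8 control and 4.74% to 5.12% in ID8 rebastinib, and 3.5% to 4.25% in PMJ2R control and 5.51% to 5.88% in PMJ2R rebastinib. The number of genes reaching 10 counts was 14849 to 14942 in ID8 control, 13575 to 14106 in ID8 rebastinib, 14099 to 14357 in PMJ2R control and 12890 to 12987 in PMJ2R rebastinib. The part of these shifts in the values below was not tested.

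Levels below are CPM after TMM scaling over all 12 libraries, which are comparable between libraries for one gene. Differences are log2 fold changes with their standard error (SE) from edgeR's quasi-likelihood test, with Benjamini-Hochberg adjustment over all genes tested. A gene was called when its adjusted p was under 0.05. The promoters of 3 members are shown first because their messengers gave the main patterns: Fos and Junb moved in opposite directions in the lines, and Jun fell in both. Each is the 250 bases before the start site in RefSeq, build GRCm38.p6, read 5′ to 3′ on the gene's strand: Fos at chr12:85473640-85473889 (plus), Junb at chr8:84978749-84978998 (minus) and Jun at chr4:95052223-95052472 (minus). Capitals mark TGACG, the core of the cAMP response element, TATAAA, the TATA box, and TGACATCA, the AP-1 site variant known from the Jun promoter, searched on both strands, and none of the marked runs overlap.
Fos: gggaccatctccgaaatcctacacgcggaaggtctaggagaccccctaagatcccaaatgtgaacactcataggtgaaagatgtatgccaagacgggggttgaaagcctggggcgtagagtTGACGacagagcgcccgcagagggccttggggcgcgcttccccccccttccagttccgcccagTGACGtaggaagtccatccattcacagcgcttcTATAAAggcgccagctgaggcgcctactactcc
Junb: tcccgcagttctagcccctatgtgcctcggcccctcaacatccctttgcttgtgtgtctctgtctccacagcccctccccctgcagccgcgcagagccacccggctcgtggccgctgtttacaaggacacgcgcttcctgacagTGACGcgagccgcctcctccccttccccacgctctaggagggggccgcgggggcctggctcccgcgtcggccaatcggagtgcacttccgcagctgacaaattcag
Jun: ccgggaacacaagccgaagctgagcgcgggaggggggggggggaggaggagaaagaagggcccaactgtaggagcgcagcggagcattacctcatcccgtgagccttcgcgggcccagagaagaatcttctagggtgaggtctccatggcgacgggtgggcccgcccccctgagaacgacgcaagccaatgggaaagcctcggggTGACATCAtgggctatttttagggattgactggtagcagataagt
In Fos the cores lie 129 and 66 bases before the start site, counted to their first base, and the TATA box 33 bases before it. The core in Junb lies 106 bases and the variant in Jun 45 bases before the start. Fosb also holds a core, 60 bases before its start, and 1 of the 3 Jdp2 entries holds one 114 bases before. Of 32851 RefSeq promoter windows of the same length, 17.8% hold TGACG, 12.4% hold TATAAA and 2.93% hold TGACATCA. The consensus AP-1 site TGACTCA is in 4.46% of them and the full cAMP response element TGACGTCA in 1.55%. Neither of these is in a window of the 7 members with an entry, which says only that these letters are not in those 250 bases. Not every window adjoins the GENCODE gene start. The base of the Junb window nearest its gene is 84978749 on chromosome 8, and the gene model on the minus strand reaches 84978718. Windows of Fosb and Jdp2 overlap their gene models. The Jund window ends at 70697738 on chromosome 8, and its gene model starts at 70698949. The Fosl2 window starts at 32136222 on chromosome 5, inside a gene model that starts at 32135801. TGACATCA was added to the search after the promoters had been read.

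In control cells the family was lower in the macrophage line. In these bulk libraries, fewer cells with a messenger and less of it per cell cannot be told apart. Of the 8 members, 7 were lower in PMJ2R control than in ID8 control and 0 were higher, where 82.3% of the 15924 genes tested were called, 42.9% lower and 39.4% higher. The median difference of the 8 was -1.99 on the log2 scale, and that of all genes tested was -0.03. The differences of the FOS genes ran from -2.37 for Fos (SE 0.149, adjusted p = 9.2e-12, edgeR) through -2.92 for Fosl2 and -2.95 for Fosl1 to -4.33 for Fosb. The value for Fosb rests on 1, 5 and 2 counts in PMJ2R control, and leaving out 1 library gave -5.04 to -3.99. Fosl1 shares exon bases with Ccdc85b, as given below, and their part in its difference was not tested. Differences of the JUN genes were smaller, at -0.77 for Junb and -1.61 for Jund. Their sizes depended on the processing: over all settings tried, Junb ran from -0.83 to -0.25 and Jund from -1.69 to -1.02. Jun differed by -0.15 (95% interval -0.32 to 0.01, adjusted p = 0.0994, edgeR), which was not called, and the call for Jun was gained without PMJ2R control replicate 3 (-0.27, adjusted p = 0.000533), and also when low counts were not filtered out (-0.18, adjusted p = 0.0283). With length and GC trends removed its direction turned, to 0.07 (adjusted p = 0.365, edgeR). Jdp2 differed by -0.46 (SE 0.0703, adjusted p = 5.22e-06, edgeR).

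With rebastinib, ID8 cells had less messenger of every member but Fosl1, though for Fosl2 the direction turned with a correction for transcript length and GC. All 8 members were called, 1 higher and 7 lower, where 80.4% of the 14829 genes tested were called, 38.4% higher and 42.0% lower. Of the 8, 5 fell and 1 rose at least 2-fold, and over all genes 40.0% changed that far, 24.4% lower and 15.6% higher. The 1 that rose that far was Fosl1 at 1.03, which was under 2-fold with length and GC trends removed (0.96) and with library totals (0.60), and leaving out 1 library gave 0.94 to 1.11. The members' median was -1.34 and that of all genes tested was -0.07. In PMJ2R, 7 members passed the filter on low counts and all 7 were called, 4 higher and 3 lower, where 83.7% of the 14010 genes tested were called, 40.1% higher and 43.6% lower. Of the 7, 4 rose and 2 fell at least 2-fold, and over all genes 41.3% changed that far, 15.6% higher and 25.7% lower. Jdp2, 1 of the 2 that fell that far, was at -1.05, and at -0.95 with length and GC trends removed. With library totals, Junb in ID8 (-1.03) and Jun in PMJ2R (-1.48) also passed 2-fold and Fosl2 in PMJ2R (0.81) did not. Their median was 1.36 and that of all genes tested was -0.05. With shares of called genes this high, being called says little about any member, and the sizes and directions carry the description.

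Fosl1 was higher with rebastinib in both lines. Jun, Jund and Jdp2 were lower in both. Fos and Junb were lower in ID8 and higher in PMJ2R, and so was Fosl2 before that correction. The eighth, Fosb, was lower in ID8 and was not tested in PMJ2R. The response itself differed between the lines for 6 of 8 members, each less negative or more positive in PMJ2R, where 52.4% of the 16566 genes tested were called, 21.8% in that direction and 30.6% in the other. The median difference of response was 1.51 over the members and -0.10 over all genes tested.

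**Figure D1:**
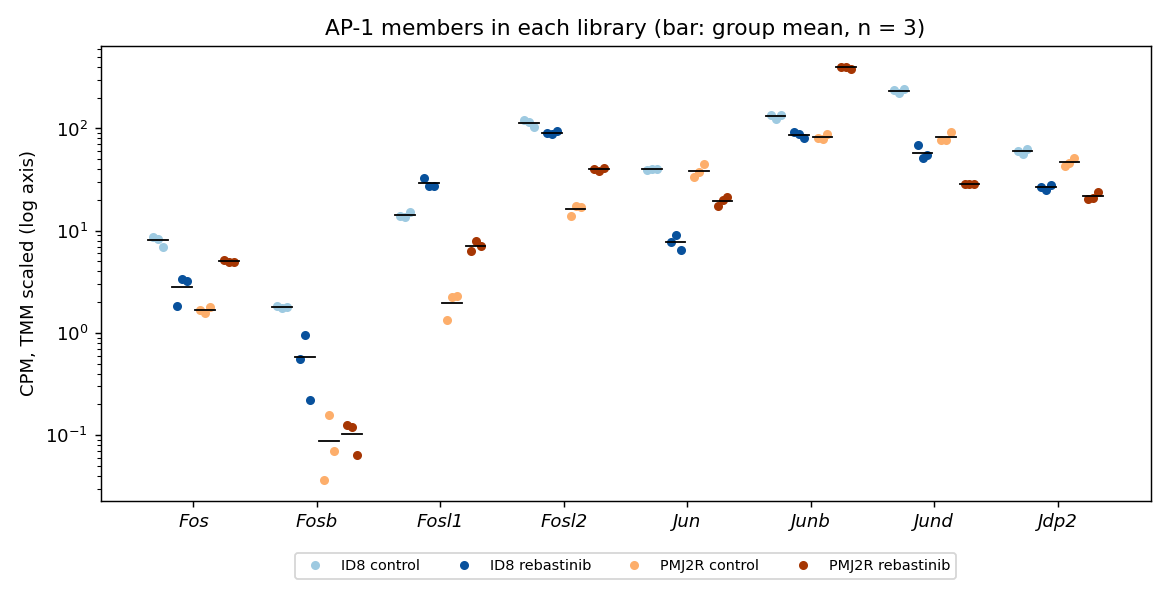
TMM-scaled CPM (log axis) of the 8 members, 1 point per library and a bar at each group mean (n = 3). Junb stands at 385 to 403 CPM in PMJ2R rebastinib and at most 135 elsewhere, Jund is highest in ID8 control, and Fosb lies under 0.2 CPM in every PMJ2R library.

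Among the FOS genes, Fos encodes the founding, rapidly induced subunit (chromosome 12, 85473890–85477273, plus strand, GRCm38). Fos stood at 8.73, 8.38 and 6.95 CPM in ID8 control and at 1.83, 3.36 and 3.19 in ID8 rebastinib. In PMJ2R it stood at 1.67, 1.55 and 1.79 CPM in control and at 5.14, 4.98 and 4.9 in rebastinib. Every treated ID8 library was below every ID8 control, and every treated PMJ2R library was above every PMJ2R control. The log2 fold change was -1.51 in ID8 (SE 0.191, adjusted p = 4.43e-06, edgeR) and 1.65 in PMJ2R (SE 0.161, adjusted p = 2.63e-08, edgeR). The difference of response was 3.10 (SE 0.256, adjusted p = 6.23e-10, edgeR), the widest of the 8 members. The line with more Fos changed with treatment: it was ID8 among controls and PMJ2R among treated cells, at 0.90 in PMJ2R against ID8 (SE 0.211, adjusted p = 0.00124, edgeR). The groups ran from ID8 control through PMJ2R rebastinib and ID8 rebastinib to PMJ2R control, and no neighbours overlapped.

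Fosb encodes a FOS protein known for slow, lasting accumulation of its short form in neurons (chromosome 7, 19302696–19310051, minus strand). It was the scarcest member. ID8 control libraries had 48, 46 and 49 counts, or 1.82, 1.74 and 1.78 CPM, and ID8 rebastinib libraries had 10, 16 and 5 counts, or 0.554, 0.96 and 0.219 CPM. All 3 treated ID8 libraries were lower than the controls, with a log2 fold change of -1.69 (SE 0.361, adjusted p = 0.00059, edgeR). PMJ2R libraries had 1, 5 and 2 counts in control and 2, 2 and 1 in rebastinib, so a response was not detectable at this depth. The difference of response was 1.87 with a 95% interval from -0.16 to 3.91 (adjusted p = 0.138, edgeR) and was not called. Without ID8 rebastinib replicate 2 it was 2.42 (adjusted p = 0.0492, edgeR).

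Fosl1 encodes FRA1, the FOS protein linked to sustained ERK signalling in tumour cells (chromosome 19, 5447547–5455946, plus strand). Its level was 13.8, 13.5 and 15.4 CPM in ID8 control and 33, 27.2 and 27.1 in ID8 rebastinib. PMJ2R control libraries had 1.35, 2.25 and 2.31 CPM and PMJ2R rebastinib libraries 6.35, 7.92 and 7.06. The treated libraries were higher than all controls of their line. The log2 fold change was 1.03 in ID8 (SE 0.104, adjusted p = 3.91e-07, edgeR) and 1.90 in PMJ2R (SE 0.178, adjusted p = 1.43e-08, edgeR), and their difference was 0.81 (SE 0.208, adjusted p = 0.00207, edgeR). Treated PMJ2R cells still had less Fosl1 than ID8 control cells. Fosl1 shares 1163 exon bases with Ccdc85b on the opposite strand, and the strand setting of the counting is not given in the sources used here, so reads in the shared bases cannot be told apart. Ccdc85b had 40.9, 38.2 and 43.8 CPM in ID8 control and 108, 78.5 and 70.5 in ID8 rebastinib, moving the same way as Fosl1. In PMJ2R it moved the other way, from 42.6, 37.7 and 37.9 CPM in control to 19.8, 22.8 and 22.8 in rebastinib. Counts of Ccdc85b per Fosl1 count were 2.83 to 2.97 in ID8 control and 2.61 to 3.27 in ID8 rebastinib. They were 16.4 to 31.6 in PMJ2R control and 2.88 to 3.23 in PMJ2R rebastinib. The part of Ccdc85b reads in the Fosl1 values was not tested.

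Fosl2 encodes FRA2 and was the most abundant FOS gene in counts (chromosome 5, 32135801–32157842, plus strand). It stood at 122, 115 and 104 CPM in ID8 control and at 90.7, 87.7 and 93.6 in ID8 rebastinib. In PMJ2R it stood at 13.8, 17.5 and 17.1 CPM in control and at 39.7, 38.5 and 41.3 in rebastinib. The groups did not overlap in either line. In PMJ2R Fosl2 rose by 1.36 (SE 0.0835, adjusted p = 3.53e-11, edgeR). In ID8 the log2 fold change was -0.32 (SE 0.0743, adjusted p = 0.00121, edgeR), and it was 0.15 (adjusted p = 0.0196, edgeR) once each library was corrected for trends with transcript length and GC, so its direction in ID8 depends on that step. The difference of response, 1.62 (SE 0.115, adjusted p = 4.66e-11, edgeR), kept its sign and call under all 21 alternatives.

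Among the JUN genes, Jun encodes the classic transactivating subunit (chromosome 4, 95049034–95052222, minus strand). Jun, Junb and Jund each have a longest transcript of 1 exon, against 4 exons in the other 5 members. Jun stood at 39.1, 40.1 and 40 CPM in ID8 control and at 7.75, 9 and 6.51 in ID8 rebastinib. In PMJ2R it stood at 33.4, 37.5 and 44.9 CPM in control and at 17.5, 20 and 21.2 in rebastinib. The control groups of the lines overlapped, and both treated groups lay below them. Jun fell by 2.37 on the log2 scale in ID8 (SE 0.111, adjusted p = 1.91e-10, edgeR), which was 5.15-fold and the largest change of a member in that line. In PMJ2R it fell by 0.92 (SE 0.0972, adjusted p = 1.29e-07, edgeR), and the responses differed by 1.39 (SE 0.16, adjusted p = 1.13e-07, edgeR). With length and GC trends removed, the log2 fold change of Jun in PMJ2R was -0.57 (adjusted p = 7.02e-06, edgeR). Jun overlaps 232 exon bases of its antisense gene Junos, which had at most 0.12 counts per Jun count in any library.

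Junb encodes a JUN protein induced in activated macrophages (chromosome 8, 84974484–84978718, minus strand). Its level was 135, 123 and 135 CPM in ID8 control and 91.4, 88 and 79.8 in ID8 rebastinib. PMJ2R control libraries had 80.3, 79.6 and 88.1 CPM and PMJ2R rebastinib libraries 400, 403 and 385. Treated PMJ2R cells had 3.02 times the mean of the next group, ID8 control, while ID8 rebastinib and PMJ2R control overlapped. Junb rose by 2.32 in PMJ2R (SE 0.0484, adjusted p = 5.1e-17, edgeR), which was 5.00-fold, and 10.5% of the genes tested there changed by more. In ID8 it fell by 0.60 (SE 0.0746, adjusted p = 3.85e-06, edgeR), so the responses differed by 2.86 (SE 0.0927, adjusted p = 6.45e-17, edgeR). Junb shares 173 exon bases with Prdx2 on the opposite strand. Counts of Prdx2 per Junb count were 2.16 to 2.45 in ID8 control and 5.61 to 6.16 in ID8 rebastinib. They were 1.49 to 1.88 in PMJ2R control and 0.565 to 0.581 in PMJ2R rebastinib. The part of Prdx2 reads in the Junb values was not tested.

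Jund encodes the JUN protein that most resting cells hold (chromosome 8, 70698949–70700616, plus strand), and 67.15% of its transcript is G or C, the highest share among the members. It stood at 236, 220 and 241 CPM in ID8 control and at 68.5, 50.9 and 54.9 in ID8 rebastinib. In PMJ2R it stood at 78, 76.5 and 91.5 CPM in control and at 28.8, 28.5 and 28.7 in rebastinib. The groups did not overlap, and ID8 rebastinib lay under PMJ2R control. Jund fell by 1.99 in ID8 (SE 0.0971, adjusted p = 2.82e-10, edgeR) and by 1.45 in PMJ2R (SE 0.0676, adjusted p = 7.57e-13, edgeR). The difference of 0.48 was called (SE 0.126, adjusted p = 0.00236, edgeR). All 877 exon bases of the antisense gene Gm11175 lie within Jund, and its counts were 0.5 to 0.623 of the Jund counts in every library, so reads of the pair cannot be told apart.

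Jdp2 encodes the dimerisation partner and repressor described above (chromosome 12, 85599027–85639878, plus strand, next to Fos). Its level was 60.2, 55.9 and 63.6 CPM in ID8 control and 26.7, 25 and 28 in ID8 rebastinib. PMJ2R control libraries had 43.4, 46.1 and 51.3 CPM and PMJ2R rebastinib libraries 20.5, 20.8 and 23.9. Both treated groups lay below both control groups. Jdp2 fell by 1.17 in ID8 (SE 0.082, adjusted p = 9.54e-09, edgeR) and by 1.05 in PMJ2R (SE 0.0767, adjusted p = 4.37e-10, edgeR). The difference of response was 0.06 with a 95% interval from -0.17 to 0.29 (adjusted p = 0.734, edgeR). With length and GC trends removed, the difference was 0.32 (adjusted p = 0.0193, edgeR). Fos and Jdp2, neighbours on chromosome 12, both fell in ID8 and moved in opposite directions in PMJ2R.

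**Figure D2:**
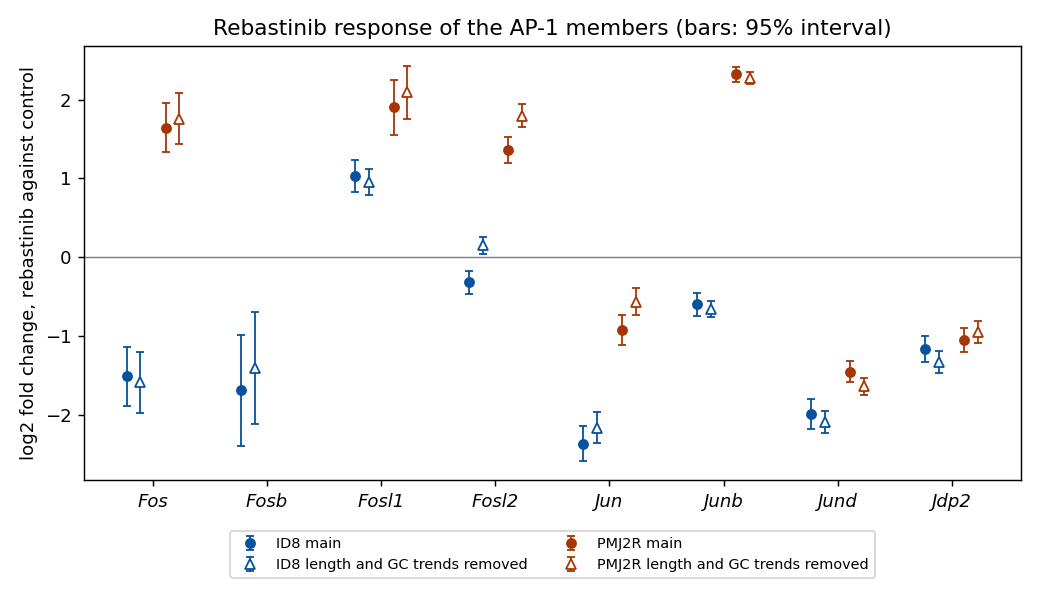
Log2 fold change of each member, rebastinib against control, in ID8 (blue) and PMJ2R (brown), with 95% intervals. Filled circles are the values in the text and open triangles those with length and GC trends removed. Fosl2 in ID8 is the only point whose sign differs between the circle and triangle, at -0.32 and 0.15.

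In treated cells of both lines, 7 members could be compared. Junb was higher in PMJ2R rebastinib than in ID8 rebastinib by 2.26 (SE 0.0666, adjusted p = 2.7e-13, edgeR), and Jun by 1.41 and Fos by 0.90 were higher too. Fosl1 differed by -1.97, Fosl2 by -1.13 and Jund by -0.96, all called. Jdp2 differed by -0.23 (adjusted p = 0.0378, edgeR), and the call was lost without ID8 rebastinib replicate 3 (-0.21), PMJ2R rebastinib replicate 1 (-0.19) or replicate 2 (-0.20), and at a mean of at least 5 CPM (adjusted p = 0.0508, edgeR). With length and GC trends removed its direction turned, to 0.08 (adjusted p = 0.44, edgeR). That makes 3 higher and 4 lower, where 82.5% of the 14496 genes tested were called, 39.9% higher and 42.6% lower. This comparison and the control comparison share no library, but each shares libraries with the rebastinib comparisons.

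To set the members beside each other, counts were divided by exon length. Each member was then taken as a share of the 8-member sum in its library, a quantity that needs no scaling between libraries. Length and GC trends were not removed from the shares. In ID8 control, Jund made up 53.8% ± 0.328 of the pool (SD, n = 3) and Junb 22.0% ± 0.271. In ID8 rebastinib Jund held 30.9% ± 2.59, and Junb, at 33.5% ± 1.85, had the highest mean share, with ranges of 28.4% to 33.6% and 32.4% to 35.7% that overlapped. In PMJ2R control, Jund held 40.1% ± 0.890 and Junb 29.4% ± 0.955. In PMJ2R rebastinib, Junb held 79.9% ± 0.926 and Jund 7.99% ± 0.143. Fos, the founding member, stayed between 0.562% and 1.45% of the pool in all 12 libraries.

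The FOS genes together took 8.67% ± 0.509 of the pool in ID8 control and 22.3% ± 0.539 in ID8 rebastinib (SD, n = 3 each), a gain of 13.6 points. Fosl1 alone went from 2.70% ± 0.138 to 12.7% ± 0.499 there. The exon bases that Fosl1 shares with Ccdc85b, Junb with Prdx2 and Jund with Gm11175 enter all these shares, and their part was not tested. In PMJ2R the FOS share went from 2.74% ± 0.316 in control to 4.53% ± 0.137 in rebastinib, 1.79 points more. The ranges of the groups did not overlap in either line, and each exact two-sided permutation test over 3 against 3 libraries gave p = 0.1, the smallest this design allows. The FOS share was 5.92 points lower in PMJ2R control than in ID8 control, at -5.92 (exact two-sided permutation p = 0.1). A gain in share is not a gain in level: in ID8 the FOS share grew while Fos, Fosb and Fosl2 were lower in CPM and Fosl1 was higher. With raw counts in place of counts per length, the FOS gain was 17.9 points in ID8 and 2.69 in PMJ2R, and the difference between controls was -15.6 points.

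**Figure D3:**
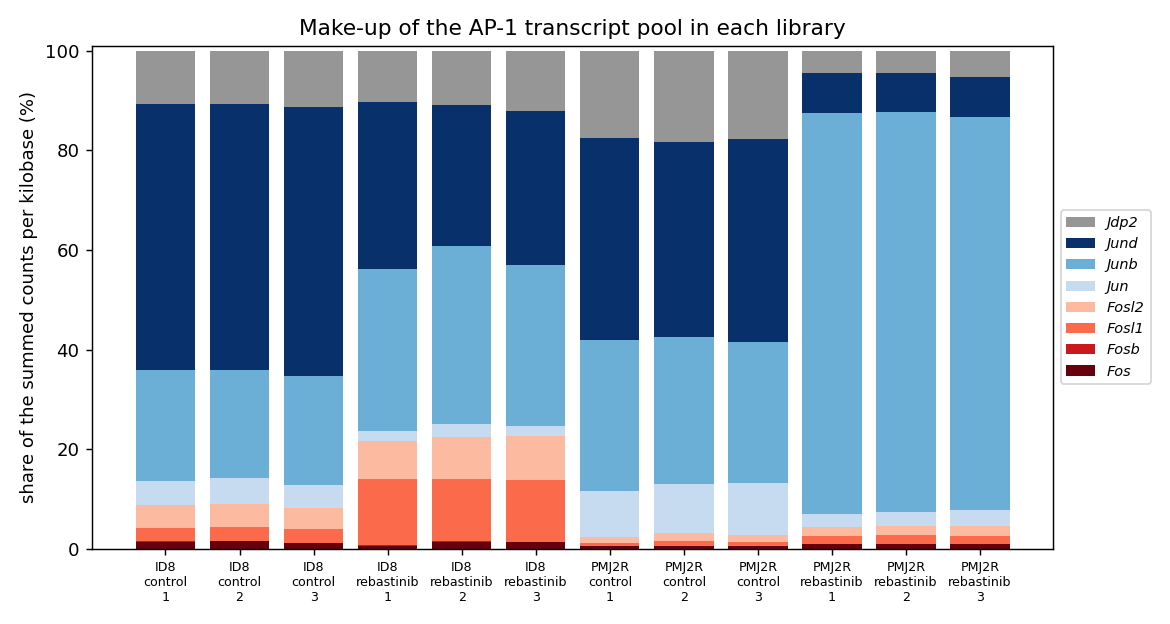
Stacked shares (%) of the 8 members in the summed counts per kilobase of exon, 1 bar per library. Junb fills 78.9% to 80.6% of the bar in PMJ2R rebastinib, and the FOS genes at the foot fill 21.7% to 22.8% in ID8 rebastinib.

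Genes around AP-1 were read from lists chosen with earlier results of these data known, so each is given as counts and a median beside the share of all genes called above. Of the other bZIP partners, 12 were tested in ID8, with 4 higher and 5 lower (median -0.03), and 13 in PMJ2R, with 8 higher and 4 lower (median 0.42). Mafk, a small MAF protein without a transactivation domain, rose by 0.94 in ID8 and 2.08 in PMJ2R. Nfe2l1, a cap'n'collar factor, fell by 1.15 in ID8 (adjusted p = 2.4e-09, edgeR). Nfe2l2, the oxidative stress factor NRF2, rose by 0.72 there. Batf3, a JUN partner of myeloid cells, fell by 3.23 in PMJ2R (adjusted p = 6.19e-14, edgeR), from 21.3, 20.8 and 21.5 CPM to 2.35, 2.4 and 1.72. The small MAF gene Mafg rose by 1.02 there. Between controls, 4 partners were higher and 10 lower in PMJ2R of 14 tested. Batf3 was among the higher and had at most 3 counts in an ID8 control library. Maf had 0 counts in every PMJ2R control library and 2257 to 2408 in ID8 control.

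MAP kinase pathway genes moved in both directions. Of 19 tested, ID8 had 11 higher and 6 lower (median 0.38) and PMJ2R 9 higher and 5 lower (median 0.11). Map2k3, a p38 activator, rose by 1.60 in ID8 and 1.42 in PMJ2R. Rps6ka3, an ERK-activated kinase, fell by 0.99 in ID8. Mapk8, which encodes JNK1, rose by 0.96 in PMJ2R. Between controls, 7 were higher and 8 lower in PMJ2R of 19 tested, and Mapk3, which encodes ERK1, differed by -2.12 and Map2k3 by -1.11. These are messenger levels, and kinase activity was not measured.

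Of the 10 transcription factors of the Fos promoter, 3 were higher and 6 lower in ID8 (median -0.43), and 4 were higher and 5 lower in PMJ2R (median -0.37). The ID8 examples were Mrtfb (-1.41), a serum response factor coactivator, and the ternary complex factors Elk1 (-1.37) and Elk3 (-0.94). In PMJ2R, Elk3 fell by 1.90 and Creb1 by 1.24, whereas Atf1, a CREB relative, rose by 1.02. Between controls 4 were higher and 2 lower in PMJ2R, Elk3 at 0.97 and Stat3 at -0.84.

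Regulators of FOS and JUN protein stability split 4 higher and 6 lower of 11 in ID8 (median -0.35) and 5 and 5 of 11 in PMJ2R (median -0.04). Itch, a ubiquitin ligase of JUN and JUNB, fell by 1.74 in ID8 and 1.12 in PMJ2R. The pseudokinase genes Trib2 and Trib1, partners of the ligase COP1, fell by 0.97 and 0.91 in ID8, and Trib2 fell by 2.02 in PMJ2R. Fbxw7, which targets phosphorylated JUN, rose by 1.13 in PMJ2R. Between controls 6 were higher and 4 lower in PMJ2R, with Trib1 at -5.75 and Trib2 at -1.56. For the messenger decay factors the counts were 5 higher and 6 lower of 12 in ID8 (median -0.07) and 6 and 5 of 12 in PMJ2R (median 0.32). Btg2, a deadenylation cofactor, fell by 2.76 in ID8, Zfp36l1, an AU-rich element binder, by 2.26 and Hnrnpd by 0.98. In PMJ2R Zfp36l2 rose by 1.52, Elavl1 by 0.80 and Khsrp by 0.83. Between controls 8 were higher and 3 lower in PMJ2R, with Pan3 at 0.99 and Btg2 at -1.17.

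Other immediate-early genes were lower more often than higher in ID8, 9 against 4 of 14 tested (median -0.57), and higher more often than lower in PMJ2R, 8 against 3 of 12 (median 1.21). Egr1, a zinc finger factor, went from 70.8, 67.9 and 64.7 CPM in ID8 control to 8.19, 15.2 and 10.5 in ID8 rebastinib, a log2 fold change of -2.59 (adjusted p = 1.33e-09, edgeR). Ccn2, a matricellular growth factor, fell by 1.62 and Dusp6, an ERK phosphatase, by 0.88 there. In PMJ2R, Ier2 went from 17, 17.6 and 21.1 CPM to 163, 167 and 163, a rise of 3.21 (adjusted p = 4.45e-17, edgeR). Klf6 rose by 1.99 and Ier3 by 3.16. Between controls 1 was higher and 12 lower in PMJ2R of 14 (median -2.40), with Egr1 at -9.01. Myc differed by -7.51, and any link to the v-myc oncogene in the PMJ2R label was not tested.

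Of the commonly cited AP-1 targets, 21 were tested in ID8, with 11 higher and 9 lower (median 0.59), and 15 in PMJ2R, with 12 higher and 3 lower (median 1.41). In ID8, the EGF-family ligand Ereg rose by 2.17 and the collagenase gene Mmp13 by 1.93. In PMJ2R, Vegfa rose by 2.50, Spp1, which encodes osteopontin, by 2.08 and the membrane linker Ezr by 1.64. Between controls 4 were higher and 15 lower in PMJ2R of 21 (median -4.20), with Ptgs2 at -8.18 and Spp1 at -5.97. Whether AP-1 acted on any of these genes was not measured.

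**Figure D4:**
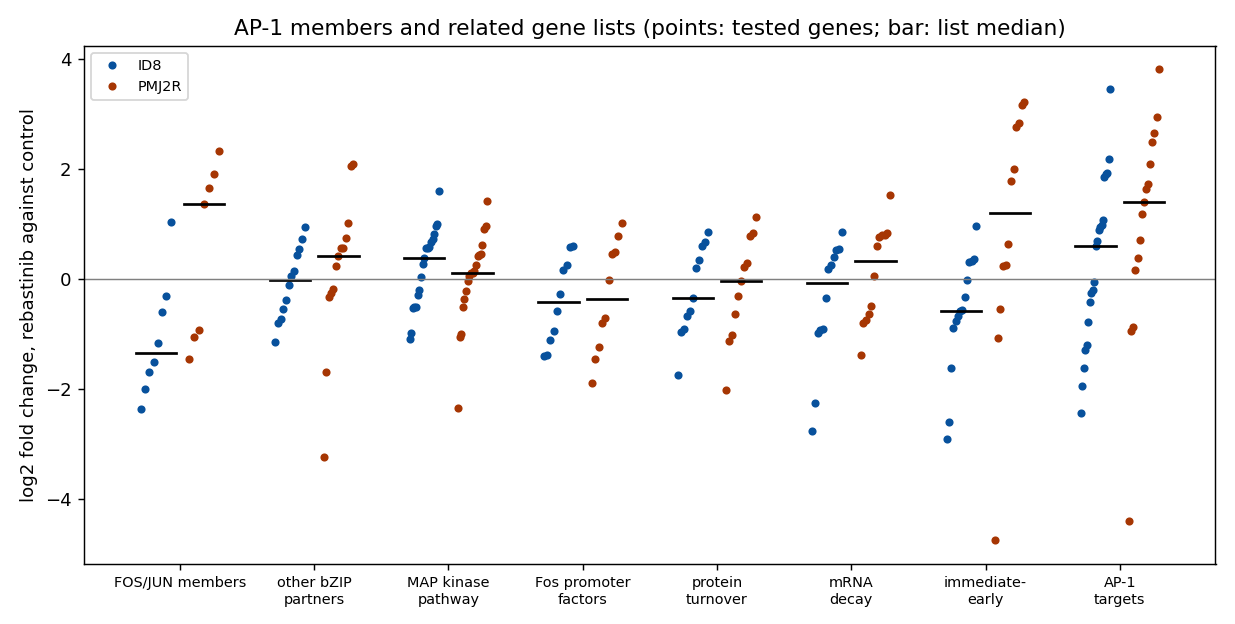
Log2 fold changes, rebastinib against control, of the tested members and of 7 related lists, 1 point per gene in ID8 (blue) and PMJ2R (brown) with a bar at the list median. The members' medians are -1.34 and 1.36, and those of the immediate-early list are -0.57 and 1.21.

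Patterns over the 12 libraries were compared by the Pearson correlation of log2(CPM + 0.5), as a description, since the libraries fall into 4 groups. Among the 28 pairs of members, Jund and Jdp2 were the most alike (r = 0.93) and Fosl1 and Fosl2 came next (r = 0.92), while Fosl1 and Jun were the most opposed (r = -0.65). Jund and Junb ran apart (r = -0.51). Among protein-coding genes at a mean of at least 5 CPM, the genes most like Fos were Zbtb39 (r = 0.973), Mtbp (0.9696) and Hk2 (0.9664), and for Fosb they were Pde5a (0.966), Csrnp2 (0.9642) and Irs1 (0.9641). For Fosl1 they were Fez2 (r = 0.9942), Lats2 (0.9934) and Gapdh (0.992), and for Fosl2 Myo1d (0.9982), Ezr (0.9954) and Wasl (0.9953). For Jun they were Zfhx2 (r = 0.9887), Prepl (0.984) and Pfkl (0.9804), and for Junb Tsc22d3 (0.9663), Kif5b (0.9647) and Mex3d (0.9623). For Jund they were Ttc19 (r = 0.9965), Tlnrd1 (0.9947) and Samd10 (0.9936), and for Jdp2 Sbno2 (0.9957), Cep41 (0.9913) and Mllt6 (0.9911).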

How the data were processed

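The deposited table held raw counts per gene as whole numbers. Per the submitters' processing notes, FastQC, STAR 2.6.1c, featureCounts, DESeq2 and build GRCm38 were used. For the annotation, the strand setting and multiply matching reads, the setting was not given in the sources used here. Symbols and exons came from GENCODE vM21; 181 identifiers with 0.00261% of counts had no model there and stayed in the library totals.

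Counts were tested with edgeR 4.0.16 (R 4.3.3; TMM, filterByExpr, robust quasi-likelihood) in the 6 libraries of each comparison, or in all 12 for the difference of response. SE is the fold change divided by the square root of F, and intervals are 1.96 SE either way. CPM were scaled over all 12 libraries and differ from the fits by at most 0.067 (log2). Shares of the pool used union exon lengths. The edgeR fit was tested on simulated counts drawn from control libraries, which lack the shifts seen with rebastinib. The other steps were not simulated. Alternatives were DESeq2 1.42.0, limma-voom (limma 3.58.1), RLE factors, library totals, no filter, a mean of at least 5 CPM, a replicate block, removal of length and GC trends, and leaving out each library.

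The members and lists were chosen with earlier results of these data known. Named genes were all 8 members, up to 3 genes per list with the smallest p in each rebastinib comparison and up to 2 between controls, and the 3 genes most like each member. Tek was named besides, after its values were seen, as were the overlapping genes. A few list genes that the rule names are not reported here.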

Additional observations from a re-analysis of the deposited data

Results flagged for a closer look

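The response to rebastinib differed between the lines, by edgeR's test of the difference itself (PMJ2R minus ID8, log2), for 6 members. The differences were 3.10 for Fos, 2.86 for Junb, 1.62 for Fosl2, 1.39 for Jun, 0.81 for Fosl1 and 0.48 for Jund. Fos and Junb changed in opposite directions in the lines, and so did Fosl2 unless length and GC trends were removed. For Jun and Jund the fall was the larger in ID8, and for Fosl1 the rise was the larger in PMJ2R. Over all genes, 52.4% were called in this test.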

How the results depend on the processing

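Of 611 alternative values over 38 member results, 592 kept direction and side of the threshold, and 33 results did so throughout. The other 5 were Fosl2 in ID8, Jun between controls, Jdp2 between treated lines, and Jdp2 and Fosb in the difference of response. Removing length and GC trends turned Fosl2 in ID8 to 0.149, Jun between controls to 0.073 and Jdp2 between treated lines to 0.083; with the replicate block as well they were 0.151, 0.067 and 0.087. The difference of response of Jdp2 was -0.009 with library totals, -0.006 without PMJ2R control replicate 1 and -0.019 without PMJ2R rebastinib replicate 3, and leaving out 1 library gave -0.019 to 0.112. The FOS share gained 17.9 points from raw counts and 15.3 without Jdp2 in ID8, and 2.69 and 1.41 in PMJ2R; between controls it was -7.01 with longest transcripts and -15.6 from raw counts. Leaving out 1 library gave 13.3 to 13.9, 1.63 to 1.95 and -6.21 to -5.72. Fosb in the difference of response was 2.33 with limma-voom (adjusted p = 0.014). Library totals alone moved the median of all genes by -0.432 in ID8 and -0.557 in PMJ2R, and the share of calls that were higher from 47.7% to 29.5% and from 47.9% to 26.3%; between treated lines the median moved by -0.156. For the difference of response, RLE factors moved it by 0.123 and the higher share from 41.7% to 50.4%, and DESeq2 by 0.124 and to 50.9%. No member called in those comparisons changed direction under these scalings. Same-numbered libraries did not deviate together (r from -0.53 to 0.01 in ID8 and from 0 to 0.08 in PMJ2R), so the numbers were not taken to pair samples. The replicate block called 11418 genes in ID8, 11726 in PMJ2R, 12841 between controls, 11998 between treated lines and 8419 for the difference of response, and changed no member's call. Members under a mean of 5 CPM gave no value with that filter. Depth limits Fosb in PMJ2R, and overlapping exons limit Fosl1, Junb and Jund.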

Other observations

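Within a library, the ratio of Junb to Jund counts needs no scaling. It was 0.559 to 0.573 in ID8 control, 1.33 to 1.73 in ID8 rebastinib, 0.962 to 1.04 in PMJ2R control and 13.4 to 14.1 in PMJ2R rebastinib. The ranges of the 4 groups did not overlap. Junb shares exon bases with Prdx2 and Jund with Gm11175, and their part in the ratio was not tested. Length and GC trends were not removed from the ratio.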
